A study of Homo sapiens with 16 samples.

Results

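Histone genes encode the proteins that package DNA into nucleosomes. They were taken here as the protein-coding genes of the count table whose current symbols begin with H1-, H2AC, H2AX, H2AZ, H2AJ, H2BC, H2BU, H3C, H3-, H4C, H4- or MACROH2A. The rule found 85 genes among the 64792 gene identifiers of the table, of which 71 are replication-dependent and 14 are variant histone genes. Their transcripts were counted in DU145, an established human prostate cancer cell line, in 4 groups of 4 libraries that the labels call independent replicates. The groups were untreated control cells (Ctrl), cells given lactate (Lactate), cells given I-BET762 (iBET) and cells given both agents (Lactate_iBET). I-BET762 is a small molecule that occupies the bromodomains with which BET proteins read acetylated histones. All groups are 1 cell line, and the labels used here give neither a dose nor a time. For the Lactate_iBET samples the cell line field counts upward from DU145, and their titles, which say DU145, were followed.

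The core histones H2A, H2B, H3 and H4 form the protein core of the nucleosome, and linker histone H1 binds the DNA that enters and leaves it. Replication-dependent histone genes lie mostly in clusters, have no introns and are transcribed in S phase, when new DNA needs packaging. Their main transcripts end just after a conserved stem-loop, which is bound by SLBP, and carry no poly(A) tail. Variant histones such as H2A.Z, H3.3 and macroH2A are made throughout the cell cycle from ordinary polyadenylated transcripts. The libraries were prepared from polyadenylated RNA, so a count of a replication-dependent gene here reads only the polyadenylated fraction of its transcripts.

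Library totals ranged from 10711859 (lactate replicate 1) to 17173584 counts. Pairs of libraries within a group were compared by the mean chi-square per gene, which is larger the more their counts differ. Lactate replicate 1 differed from the other lactate libraries by 72.0 to 166, and those others from each other by 12.3 to 45.2. I-BET762 replicates 3 and 4 were the most alike pair, at 2.07, with every other pair at 4.08 or more. The causes were not tested. HEXIM1, a gene that BET inhibitors are known to raise, measured 75.7, 135, 70.01 and 77.4 CPM (counts scaled to an equal library size, edgeR's usual unit) in control replicates 1 to 4 and 149, 89.6, 113 and 114 CPM in I-BET762 replicates 1 to 4. The library labelled control replicate 2 thus read above the library labelled I-BET762 replicate 2, against their labels, and results on I-BET762 are given with and without these 2 libraries. All 6 of the epithelial genes checked (among them KRT8, KRT18 and EPCAM) were detected above the low-count filter. Among genes of other cells, the filter was passed by 2 of 7 luminal prostate genes, 1 of 6 fibroblast genes and 3 of 6 leukocyte genes, and FOLH1, DCN and CD3E had no count in any library. The 6 fibroblast genes together summed to 3.94 to 4.82 CPM in control, 5.19 to 8.86 in lactate, 4.66 to 7.84 in I-BET762 and 5.16 to 10.2 with both. The 6 leukocyte genes summed to 2.56 to 3.33 CPM in control, 3.27 to 4.42 in lactate, 1.84 to 3.74 in I-BET762 and 2.55 to 3.05 with both. Both sums are small beside the 2438 to 4515 CPM of the 6 epithelial genes over all libraries, and their part in the results was not tested.

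The stem-loop is the known mark of replication-dependent histone transcripts, so its sequence is shown for the genes on which the results turn. The pattern, GGNNC then TTTT, any base and AGNNCC without a gap, was searched on the sense strand of the GENCODE 29 transcripts (GRCh38), and the lines below give it in capitals with 5 bases of the same exon on either side, 5′ to 3′.
H2BC4 (chr6:26123467-26123492, minus strand): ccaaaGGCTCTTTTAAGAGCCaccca
H2BC5 (chr6:26158582-26158607, plus strand): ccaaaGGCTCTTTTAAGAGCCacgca
H2BC6 (chr6:26184205-26184230, plus strand): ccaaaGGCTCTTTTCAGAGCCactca
H2BC21 (chr1:149886183-149886208, minus strand): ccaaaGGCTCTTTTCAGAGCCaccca
H2AC11 (chr6:27133510-27133535, plus strand): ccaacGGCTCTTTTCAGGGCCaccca
H2AC6 (chr6:26124664-26124689, plus strand): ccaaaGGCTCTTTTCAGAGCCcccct
H4C8 (chr6:26285126-26285151, minus strand): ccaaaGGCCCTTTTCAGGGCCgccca
H2AX (chr11:119094893-119094918, minus strand): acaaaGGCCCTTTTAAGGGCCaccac

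The pattern was found in transcripts of 32 of the 85 histone genes (37.6%) and of 28 of 19866 other protein-coding genes (0.141%). The 40 replication-dependent genes without a match have short annotated models (median 394 bases). A missing match therefore does not show that a gene lacks a stem-loop. GGCTCTTTTCAGAGCC was its commonest form, in 17 genes, among them H2BC6, H2BC21 and H2AC6. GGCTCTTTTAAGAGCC, in H2BC4, H2BC5 and 3 other genes, differs from it in the loop. H2AC11 alone carried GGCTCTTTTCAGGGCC. H2AX, a variant gene whose protein is phosphorylated next to DNA breaks, alone carried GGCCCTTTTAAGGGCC and was the only variant gene with a match. Most annotated models of the expressed genes run past this site: the transcript with the match continued for 1761 bases in H2AC11, 1729 in H2BC21, 1655 in H4C8, 430 in H2BC6, 116 in H2BC4 and 39 in H2BC5.

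The 4 H2B genes called in the I-BET762 comparison given later, H2BC4, H2BC5, H2BC6 and H2BC21, have the promoter windows shown next, each 300 bases long and reaching from upstream of the RefSeq start to just past it (GRCh38.p14), on the gene's own strand. Capitals mark the octamer ATTTGCAT (bound by OCT1), the TATA box TATAAA and the CCAAT box, searched on both strands, so that TTTATA and ATTGG are reverse-strand matches; a TATA box can overlap its own reverse match.
H2BC4 (chr6:26123877-26124176, minus strand): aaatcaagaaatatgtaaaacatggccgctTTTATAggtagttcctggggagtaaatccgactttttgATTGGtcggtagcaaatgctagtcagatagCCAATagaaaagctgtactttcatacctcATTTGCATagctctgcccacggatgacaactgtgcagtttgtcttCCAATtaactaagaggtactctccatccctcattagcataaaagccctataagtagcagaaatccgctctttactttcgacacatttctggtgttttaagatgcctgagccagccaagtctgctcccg
H2BC5 (chr6:26157871-26158170, plus strand): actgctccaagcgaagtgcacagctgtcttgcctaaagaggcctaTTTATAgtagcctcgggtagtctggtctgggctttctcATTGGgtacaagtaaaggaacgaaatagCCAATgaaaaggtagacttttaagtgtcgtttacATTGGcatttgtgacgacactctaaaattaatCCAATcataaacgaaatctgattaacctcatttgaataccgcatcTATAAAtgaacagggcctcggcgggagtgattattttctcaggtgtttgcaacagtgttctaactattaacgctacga
H2BC6 (chr6:26183511-26183810, plus strand): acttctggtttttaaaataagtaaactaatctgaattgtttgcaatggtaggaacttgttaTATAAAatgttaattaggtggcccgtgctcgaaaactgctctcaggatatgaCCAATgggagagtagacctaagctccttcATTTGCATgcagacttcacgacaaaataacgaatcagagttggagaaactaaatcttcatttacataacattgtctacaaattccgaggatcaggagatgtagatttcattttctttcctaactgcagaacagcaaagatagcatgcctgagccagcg
H2BC21 (chr1:149886633-149886932, minus strand): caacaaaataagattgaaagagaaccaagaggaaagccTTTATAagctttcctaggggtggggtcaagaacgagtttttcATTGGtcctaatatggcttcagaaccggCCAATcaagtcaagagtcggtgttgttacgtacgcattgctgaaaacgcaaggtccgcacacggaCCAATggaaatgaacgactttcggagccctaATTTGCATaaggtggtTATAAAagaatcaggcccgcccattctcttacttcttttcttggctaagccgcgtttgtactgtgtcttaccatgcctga

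RefSeq windows matched 77 of the 85 histone genes and 31 of the 33 that were tested. The octamer was found in 27 of those 77 windows (35.1%) against 492 of the 27305 promoter windows in the table (1.802%). It was in 14 of 18 replication-dependent H2B windows and 11 of 16 replication-dependent H2A windows, and in 0 of 13 replication-dependent H4 windows. The TATA box was in 62.3% of the histone windows and in 3264 of the 27305 windows (11.95%), and the CCAAT box in 83.1% against 35.7%. The window of H2BC5 has no exact octamer, and those of H2BC4, H2BC6 and H2BC21 each have one. The H2BC4 window overlaps that of H2AC6, which is transcribed the other way. These are matches of letters and not measured binding.

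Of the 85 genes, 33 passed the low-count filter that all genes had to pass for testing: 23 of 71 replication-dependent and 10 of 14 variant genes. Another 23 had no count in any library. Among replication-dependent genes, 14 of 22 whose annotated transcript runs at least 100 bases past the stem-loop passed, as did 3 of 9 with a shorter extension and 6 of 40 whose annotated transcripts hold no stem-loop. These models also differ in length (medians of 1902, 503 and 394 bases), and the part of length in passing was not tested. Near-identical copies also limit what can be counted: in 18 genes fewer than 50% of the 75-base stretches, the length of the reads, were unique to the gene, and 3 of these 18 passed, against 25 of 60 genes with at least 90%. Of the 33, 24 lay above the minimum of about 0.69 CPM in all 16 libraries. The other 9 (H1-4, H2AC13, H2BC8, H2BC18, H3C2, H3C8, H4C9, H4C14 and H4C16) passed through part of the libraries, and H1-4, H3C2 and H4C16 reached the minimum in no control library.

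Set per kilobase of exon, the mean level over all libraries was highest for linker histone H1-2, at 413 CPM per kb. H2AZ1 stood at 179 and H2BC12 at 156. Model length enters this scale: the models of H1-2 (642 bases) and H2BC12 (381 bases) hold no stem-loop, while that of H2BC21 runs to 2194 bases. H1-10 (65.9), H2AC6 (59.1), H3-3B (52.6) and H2AZ2 (41.2) were lower on this per-length scale. H2BC5 (28.8), H2BC21 (19.5), H2BC4 (15.5), H4C8 (11.1) and H3C10 (9.67) were the leading H2B, H4 and H3 genes among the remaining replication-dependent ones. Only 49.5% of the 75-base stretches of H2BC12 are unique to it, so its level is uncertain. H3-3A encodes the same H3.3 protein as H3-3B but measured only 3.94 to 6.22 CPM in control libraries against 240.3 to 334 CPM for H3-3B, and as it shares sequence with processed copies its count is uncertain too. In summed CPM, variant genes made up 75.7% of the histone counts, replication-dependent H1 10.9%, H2B 7.03%, H2A 4.61%, H4 1.18% and H3 0.577%.

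The first question is what I-BET762 did to histone transcripts, in cells without and with lactate. Averaged over both, 7 of the 33 tested histone genes rose and none fell at an adjusted p under 0.05 in edgeR, where 1.96% of all 14690 tested genes changed and 1.53% rose. The 7 were the H2B genes H2BC4, H2BC5, H2BC6 and H2BC21, the H2A gene H2AC11, the H3 gene H3C2 and the linker gene H1-10: 6 of 23 replication-dependent genes and 1 of 10 variant genes. The median log2 fold change was 0.47 over the 33 histone genes and -0.01 over all tested genes. It was 0.53 over the 23 replication-dependent genes, 21 of them positive, and 0.10 over the 10 variant genes, 6 of them positive. H3C2, H1-4 and H4C16 reached the minimum count in no control library and so passed the filter through treated libraries. Without these 3, a recount chosen after seeing the data, 6 of 30 histone genes and 5 of 20 replication-dependent genes were called higher, with medians of 0.44 and 0.52. H2AC13, H4C9 and H4C14 stay in this recount. Each reached the minimum in 1 control and 2 lactate libraries, and passed the filter only with libraries given I-BET762. The recount is therefore not free of the filter, and its medians are a description. In RNA from whole cultures, a different share of cells in S phase and a different amount of transcript per cell cannot be told apart. For replication-dependent genes, a different polyadenylated fraction of the transcripts cannot be told apart from these either.

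H2B showed this most widely, with 4 of 9 tested genes called and 9 of 9 above 0. H2BC5 measured 15.1, 27.6, 19.3 and 17.16 CPM in control replicates 1 to 4, and 13.5, 16.6, 18 and 15.7 CPM in the lactate libraries. The I-BET762 libraries gave 35.96, 15.3, 39.7 and 37.8 CPM of H2BC5 and those with both agents 30.7, 36.8, 29.7 and 32.1 CPM. Both groups given I-BET762 read higher, except that the library labelled I-BET762 replicate 2 sat within the control range and the library labelled control replicate 2 stood above its own group. The averaged log2 fold change of H2BC5 was 0.86 ± 0.17 (SE; adjusted p = 0.038). H2BC6 measured 4.13, 8.65, 4.66 and 3.97 CPM in control replicates 1 to 4, and 3.36, 5.02, 4.42 and 3.42 CPM in the lactate libraries. With I-BET762 alone it measured 9.2, 3.96, 9.8 and 9.32 CPM, and with both treatments 10.9, 11.6, 9.84 and 10.6 CPM. Again every library given both treatments lay above every control and every lactate library. The averaged log2 fold change of H2BC6 was 1.00 ± 0.19 (SE; adjusted p = 0.038), and 72.2% of its 75-base stretches are its own.

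H2BC4 measured 8.2, 12.2, 9.92 and 7.87 CPM in control replicates 1 to 4, and 10.6, 9.83, 8.83 and 7.07 CPM in the lactate libraries. H2BC4 read 15.5, 10.04, 20.5 and 18.7 CPM in the I-BET762 libraries and 17.5, 17.9, 14.2 and 18.03 CPM in the double-treated ones. H2BC4 libraries given both treatments lay above all control and lactate libraries, and the averaged log2 fold change was 0.83 ± 0.14 (SE; adjusted p = 0.038). H2BC21 measured 29.4, 45.5, 38.4 and 37.1 CPM in control replicates 1 to 4, and 23.4, 27.8, 29.8 and 29.6 CPM in the lactate libraries. With I-BET762 alone it measured 49.2, 23.2, 71.5 and 71.6 CPM, and with both treatments 47.6, 46.99, 56.3 and 55.9 CPM. H2BC21, from the smaller cluster on chromosome 1, ranged from 23.4 to 29.8 CPM with lactate, around or below the lowest control library, and every double-treated library lay above every control library. Its averaged I-BET762 log2 fold change was 0.71 ± 0.17 (SE; adjusted p = 0.046). The other tested H2B genes had averaged log2 fold changes between 0.21 (H2BC15) and 0.53 (H2BC18), and none passed the test; H2BC12, the H2B gene with the highest level, had 0.41 ± 0.11 (SE; adjusted p = 0.051).

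**Figure D1:**
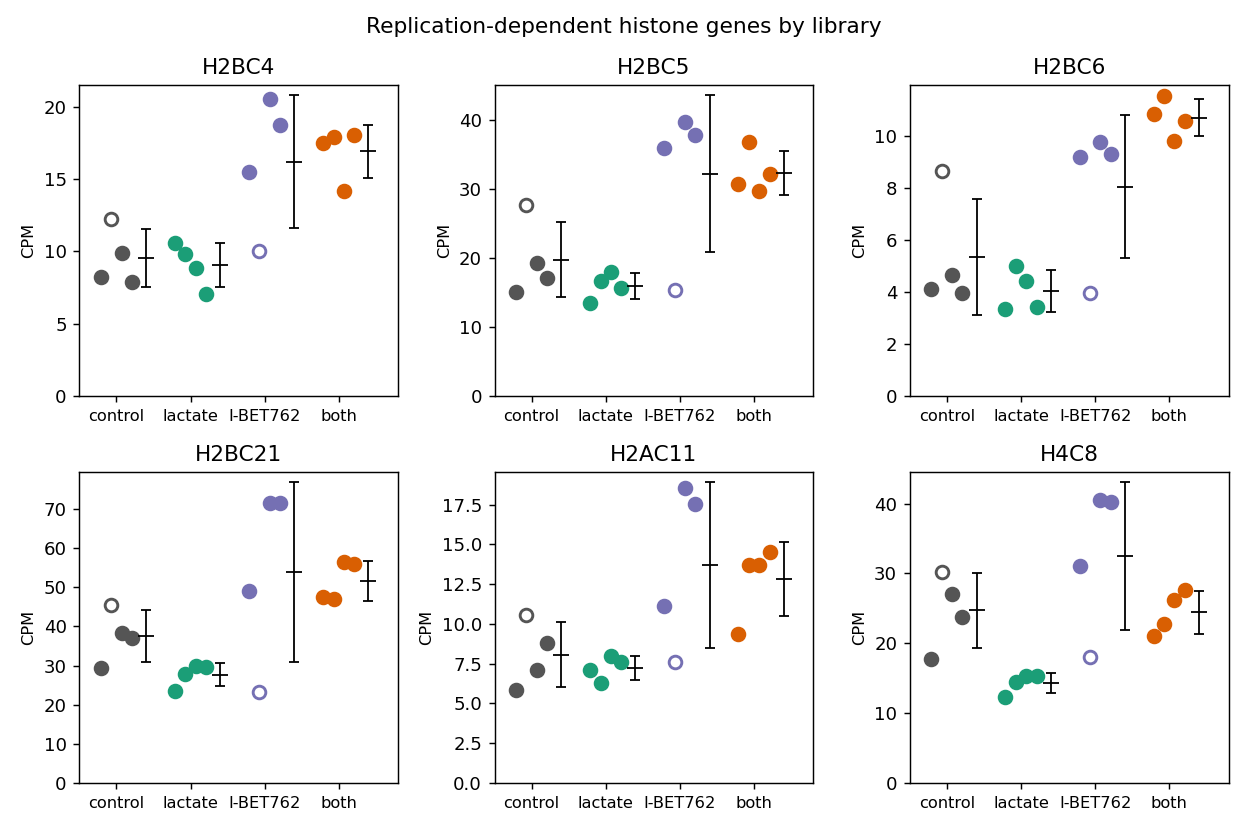
CPM of 6 replication-dependent histone genes in each library (points, by group), with the group mean and SD over 4 libraries beside them. Open points are replicate 2 of control and of I-BET762, as labelled; for H2BC5 they stand at 27.6 and 15.3 CPM, apart from the other libraries of their groups.

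Among H2A genes, H2AC11 measured 5.85, 10.5, 7.09 and 8.79 CPM in control replicates 1 to 4, and 7.12, 6.25, 7.98 and 7.59 CPM in the lactate libraries. H2AC11 read 11.1, 7.62, 18.5 and 17.5 CPM in the I-BET762 libraries and 9.35, 13.7, 13.7 and 14.5 CPM in the double-treated ones. The control and double-treated ranges of H2AC11 overlap through the library labelled control replicate 2 and the first double-treated library. Its averaged log2 fold change was 0.80 ± 0.18 (SE; adjusted p = 0.039). H2AC11 lies head to head with H2BC11, whose averaged log2 fold change was 0.47 ± 0.19 (SE; adjusted p = 0.18). The most abundant replication-dependent H2A gene, H2AC6, had 0.39 ± 0.14 (SE; adjusted p = 0.15).

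H3C2 was near the limit of detection, with 4 to 22 counts per library. H3C2 measured 0.318, 0.531, 0.263 and 0.496 CPM in control replicates 1 to 4, and 0.508, 0.344, 0.226 and 0.298 CPM in the lactate libraries. With I-BET762 alone it measured 0.899, 0.513, 1.01 and 0.87 CPM, and with both treatments 0.756, 1.25, 0.688 and 1.5 CPM. It reached the minimum in 3 I-BET762 and 4 double-treated libraries and in no control or lactate library. As only libraries given I-BET762 brought it through the filter, its averaged log2 fold change of 1.35 ± 0.26 (SE) is a description. H3C10, the H3 gene with the highest level among the replication-dependent ones, had 0.38 ± 0.17 (SE; adjusted p = 0.24). No H4 gene passed the averaged test, and 4 of 5 were above 0. Of the 5, H4C9, H4C14 and H4C16 passed the filter only with libraries given I-BET762, so this count is a description. H4C8, the leading H4 gene, had 0.58 ± 0.15 (SE; adjusted p = 0.051).

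Split by lactate, I-BET762 against control gave 1 called histone gene, H1-10 (1.06 ± 0.21 (SE; adjusted p = 0.047)), where 0.442% of all tested genes were called. In this comparison 30 of 33 histone genes were above 0, against 6311 of 14690 tested genes, with a median log2 fold change of 0.48 against -0.03. Both treatments against lactate alone gave no called histone gene, and 0.0% of all tested genes passed edgeR's test there. At an unadjusted p under 0.05, 12 histone genes passed, against 15.6% of all tested genes, and 3 passed DESeq2's adjusted test (H2BC4, H2BC5 and H2BC6), against 0.613% of all. The 9 H2B genes were all above 0 in this comparison too, with a median log2 fold change of 0.81. H2BC6 had 1.39 ± 0.28 (SE; adjusted p = 0.22), H2BC5 1.01 ± 0.24 (SE; adjusted p = 0.22), H2BC4 0.90 ± 0.20 (SE; adjusted p = 0.22) and H2BC21 0.90 ± 0.25 (SE; adjusted p = 0.22). The 2 comparisons share no library and have in common only the estimate of spread.

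Set aside, the 2 libraries whose HEXIM1 went against their labels changed these counts. For H2BC4, H2BC5, H2BC6, H2BC11, H2BC12, H2BC18, H2BC21, H2AC11, H3C2 and H4C8 they held the highest control value and the lowest I-BET762 value. Leaving them out therefore widens the difference between I-BET762 and control in these genes and narrows their spread within groups. The calls that these genes gained are thus a description. The averaged comparison then called 14 histone genes higher and none lower, where 6.57% of all genes were called. Those 14 include the 7 above, and added H2AC13, H2AX, H2BC11, H2BC12, H2BC18, H4C8 and H4C14. Of the 14, H2AC13 and H4C14 had reached the minimum in 1 control and 2 lactate libraries each. With I-BET762 alone and with both treatments they had reached it in 3 and 4 libraries (H2AC13) and in 2 and 4 (H4C14). As most of these libraries were given I-BET762, both calls are a description. H3C2 had reached it in no control or lactate library, so its call is a description here too. I-BET762 against control called 3 histone genes, H2BC4 (log2 fold change 1.07, adjusted p = 0.039), H2BC5 (1.14, adjusted p = 0.012) and H2BC6 (1.15, adjusted p = 0.037), where 0.0671% of all genes were called. These 3 were among the 6 genes (0.0403%) of the whole table that were called higher. H1-10 then had 1.10 with an adjusted p of 0.072. Both treatments against lactate called H2BC4, H2BC5, H2BC6, H2BC21 and H4C8, 5 of the 11 genes (0.0738%) called higher in that comparison, where 0.403% of all genes were called in either direction. Over the remaining libraries H2BC5 ranged from 15.1 to 19.3 CPM in control and from 35.96 to 39.7 CPM with I-BET762, and H2BC6 from 3.97 to 4.66 and 9.2 to 9.8 CPM.

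The calls of the averaged comparison were often lost when a single library was left out. Leaving out 1 library gave 0 called histone genes in 9 of 16 cases (control replicates 1 and 3, lactate replicates 2 and 4, I-BET762 replicates 1 and 3, and double-treated replicates 1, 2 and 4), where no gene of the table was called. It gave 11 without control replicate 2, where 5.59% of all genes were called, and 12 without lactate replicate 1, where 4.1% were. Without any other single library it gave 5 to 10, where 1.07% to 3.59% of all genes were called. Over all settings tried, the averaged log2 fold changes of the 7 genes stayed positive, from 0.30 to 0.89 for H1-10 and from 0.80 to 1.08 for H2BC5. For I-BET762 against control, H1-10 was no longer called without control replicate 1, 2 or 3 or without I-BET762 replicate 1, 2 or 3.

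**Figure D2:**
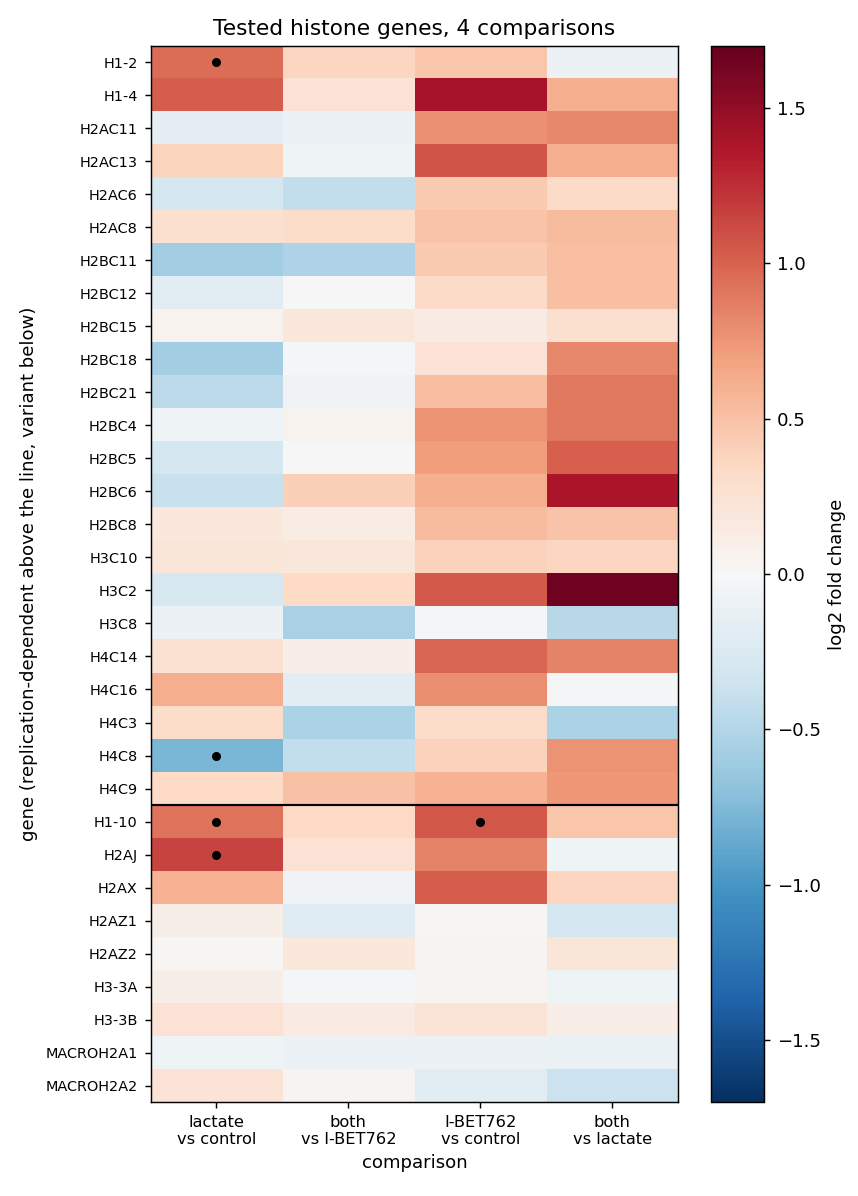
Log2 fold changes of 32 of the 33 tested histone genes (rows) in 4 comparisons (columns); dots mark an adjusted p under 0.05 in edgeR. The H2B rows are above 0 in both I-BET762 columns, 9 of 9 in each, and H4C8 is the 1 gene marked as lower, in the lactate column.

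The second question is what lactate did. In cells without I-BET762, lactate raised 3 histone genes, H1-2, H1-10 and H2AJ, and lowered 1, H4C8, where 23.7% of all tested genes changed (13.6% higher, 10.1% lower). The share of histone genes called, 4 of 33, was below that background. The median log2 fold change was 0.10 over the histone genes and 0.03 over all genes. It was -0.30 over the 9 H2B genes, 7 of them below 0 and none called, and 0.94 over the 4 tested H1 genes, all above 0.

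H4C8 encodes histone H4, as does each of the other H4C genes. H4C8 measured 17.7, 30.3, 27.1 and 23.8 CPM in control replicates 1 to 4, and 12.3, 14.5, 15.3 and 15.3 CPM in the lactate libraries. H4C8 read 31.05, 18.1, 40.5 and 40.3 CPM in the I-BET762 libraries and 21.1, 22.7, 26.2 and 27.7 CPM in the double-treated ones. Every lactate library lay below every control library, and the log2 fold change was -0.78 ± 0.22 (SE; adjusted p = 0.017); without control replicate 3 it was not called (adjusted p = 0.051). With both treatments the level lay within the control range, -0.02 ± 0.21 against control. H2BC21 (-0.44 ± 0.25 (SE; adjusted p = 0.19)) and H2BC11 (-0.59 ± 0.27 (SE; adjusted p = 0.11)) had the same direction with lactate and did not pass. Within its own family H4C8 stood alone. Of the 5 tested H4 genes, 4 were above 0 with lactate, none of them called, and the median log2 fold change was 0.31.

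H1-2, a linker histone whose gene lies in the main cluster on chromosome 6, was the most abundant replication-dependent gene. H1-2 measured 167, 193, 135 and 198 CPM in control replicates 1 to 4, and 600.4, 216, 215 and 306 CPM in the lactate libraries. With I-BET762 alone it measured 241, 207, 254 and 263 CPM, and with both treatments 282, 304, 308 and 354 CPM. Each treated library read above each control library. Lactate replicate 1 stood at 600.4 CPM, far above the other lactate libraries, from which it also differed most over the whole table. The log2 fold change was 0.95 ± 0.25 (SE; adjusted p = 0.013) with lactate, 0.48 ± 0.25 (SE; adjusted p = 0.51) with I-BET762 and 0.85 ± 0.25 (SE; adjusted p = 0.023) with both. Without lactate replicate 1 the lactate value was 0.50 and was still called (adjusted p = 0.018). The lactate call was lost without control replicate 3 (adjusted p = 0.051) and when only the control and lactate libraries were fitted (adjusted p = 0.092).

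H2AJ is a variant of H2A encoded outside the clusters, on chromosome 12. H2AJ measured 15.6, 14.1, 9.72 and 17.4 CPM in control replicates 1 to 4, and 51.2, 21.4, 25.7 and 28.4 CPM in the lactate libraries. With I-BET762 alone it measured 29.9, 25.7, 22.9 and 23.1 CPM, and with both treatments 30.6, 35.4, 21.3 and 33.2 CPM. All treated libraries lay above all control libraries. The log2 fold change was 1.15 ± 0.24 (SE; adjusted p = 0.0043) with lactate, 0.84 ± 0.24 (SE; adjusted p = 0.11) with I-BET762 and 1.08 ± 0.24 (SE; adjusted p = 0.0053) with both. H2AJ was called with lactate and with both treatments in every one of the 17 settings tried for each.

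H1-10 is a replication-independent linker histone encoded on chromosome 3. H1-10 measured 52.9, 49.2, 35.2 and 70.7 CPM in control replicates 1 to 4, and 71.7, 88.7, 122 and 113 CPM in the lactate libraries. The I-BET762 libraries gave 117, 94.6, 118 and 104 CPM of H1-10 and those with both agents 111, 156, 107 and 177 CPM. Its treated libraries all read above its control libraries, with lactate replicate 1 (71.7 CPM) next to control replicate 4 (70.7 CPM). The log2 fold change was 0.93 ± 0.21 (SE; adjusted p = 0.0063) with lactate and 1.40 ± 0.21 (SE; adjusted p = 4.3e-04) with both treatments.

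GC content moved with the groups beside this result. H1-10 transcripts have a GC content of 68.6%, against a median of 49.0% over tested genes, and the deviation of a library from the mean of all libraries correlated with GC content across genes at Spearman's rho of -0.56 to -0.30 in control, -0.01 to 0.33 in lactate, -0.19 to 0.17 in I-BET762 and 0.06 to 0.44 in double-treated libraries. These coefficients are across genes within a library, and genes are not independent replicates. The same deviation correlated with exon length at -0.40 and -0.42 in lactate replicates 1 and 4. Corrected for GC content and exon length, H1-10 had a log2 fold change of -0.14 with lactate, 0.23 with I-BET762 and 0.24 with both, and none was called. In that fit 14.6% of all genes were called with lactate. H1-2 (GC content 57.5%) had 0.41 with lactate after the correction and was not called, and H2AJ (47.9%) had 1.13 and was. H4C8 (44.7%) kept -0.82 and was called, and H2BC12, not called before it, was called lower with lactate (-0.77, adjusted p = 0.021). With the correction H2BC12 (GC content 61.2%) also went from 0.32 to -0.07 with I-BET762 and from 0.32 to -0.21 with both treatments, against control. That all tested H2B genes were above 0 with I-BET762 against control thus holds only without this correction.

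**Figure D3:**
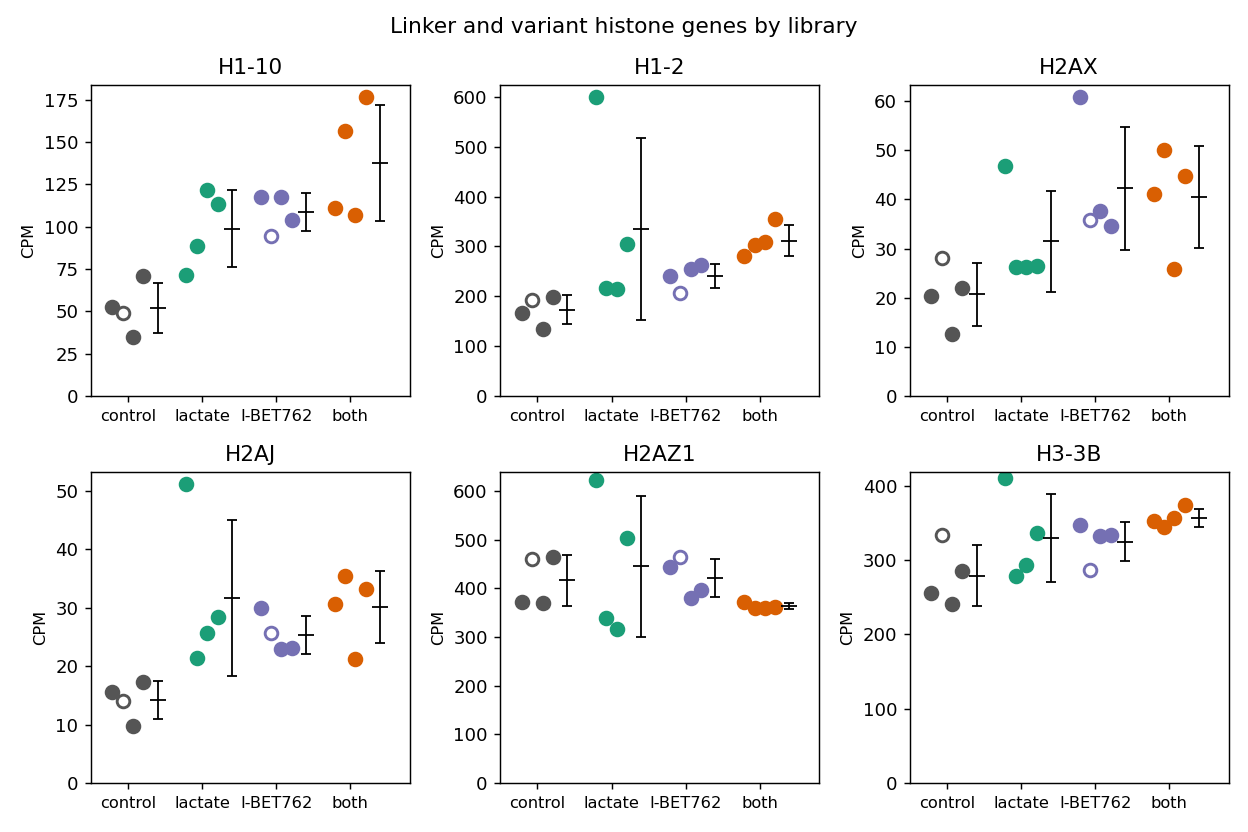
CPM of 6 linker and variant histone genes in each library (points), with group means and SDs over 4 libraries. Open points are replicate 2 of control and of I-BET762, as labelled; for H2AJ every treated library lies above the control range of 9.72 to 17.4 CPM, while H2AZ1 spans 370.0 to 464 CPM in control and 317 to 623 CPM with lactate.

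Under both treatments against control, 10 histone genes rose and none fell, where 20.7% of all tested genes changed and 13.0% rose. They were H2BC4, H2BC5 and H2BC6, H2AC8, H3C2, the linker genes H1-2, H1-4 and H1-10, and the variant genes H2AJ and H2AX. The median log2 fold change was 0.58 over the 33 histone genes and -0.01 over all genes. H2BC6 had 1.01 ± 0.27 (SE; adjusted p = 0.015), H2BC4 0.82 ± 0.20 (SE; adjusted p = 0.0094) and H2BC5 0.71 ± 0.24 (SE; adjusted p = 0.042). Without H3C2, H1-4 and H4C16, 8 of 30 were called higher and the median was 0.41. H2AC13, H4C9 and H4C14, which stay among the 30, reached the minimum in 1 control library each, so this median is a description. This comparison shares its control libraries with the other 2 against control, so their calls are not independent.

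H2AC8, an H2A gene of the main cluster, was low but even. H2AC8 measured 1.33, 1.37, 1.38 and 1.28 CPM in control replicates 1 to 4, and 2.14, 1.65, 1.36 and 1.41 CPM in the lactate libraries. H2AC8 read 2.21, 1.61, 2.2 and 1.49 CPM in the I-BET762 libraries and 2.27, 2.56, 1.79 and 2.73 CPM in the double-treated ones. All double-treated libraries lay above all control libraries, and the log2 fold change was 0.80 ± 0.22 (SE; adjusted p = 0.016). H1-4 was lower still, with 2 to 23 counts per library. H1-4 measured 0.445, 0.152, 0.197 and 0.355 CPM in control replicates 1 to 4, and 0.407, 0.481, 0.849 and 0.595 CPM in the lactate libraries. The I-BET762 libraries gave 0.761, 0.513, 0.891 and 0.932 CPM of H1-4 and those with both agents 0.481, 0.83, 0.826 and 1.57 CPM. It reached the minimum in 0 control, 1 lactate, 3 I-BET762 and 3 double-treated libraries, so its log2 fold change of 1.64 ± 0.42 (SE) for both treatments is a description too.

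H2AX, the variant phosphorylated next to DNA breaks, had a log2 fold change of 0.97 ± 0.27 (SE; adjusted p = 0.017) for both treatments. H2AX measured 20.4, 28, 12.5 and 21.99 CPM in control replicates 1 to 4, and 46.9, 26.3, 26.2 and 26.5 CPM in the lactate libraries. The I-BET762 libraries gave 60.9, 35.8, 37.7 and 34.6 CPM of H2AX and those with both agents 41.1, 49.97, 25.9 and 44.8 CPM. Replicate 1 read highest with lactate and with I-BET762, and the double-treated range reached into the control range. The GC content of H2AX transcripts is 66.8%, and after the GC and length correction its log2 fold change was -0.05 for both treatments and -0.37 for lactate, which stood at 0.60 before it. With that correction 4 histone genes were called under both treatments (H1-2, H2AJ, H2BC4 and H2BC6), where 12.8% of all genes were called. H2BC4 (0.81) and H2BC6 (1.05), whose GC contents of 50.9% and 48.6% lie near the median, hardly moved. In the averaged comparison the correction left H2AC11, H2BC4, H2BC6 and H3C2 called, where 0.265% of all genes were called, with H2BC5 at 0.95 (adjusted p = 0.050) and H2BC21 at 0.80 (adjusted p = 0.054). The H3C2 call is a description, as only libraries given I-BET762 brought this gene through the filter.

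**Figure D4:**
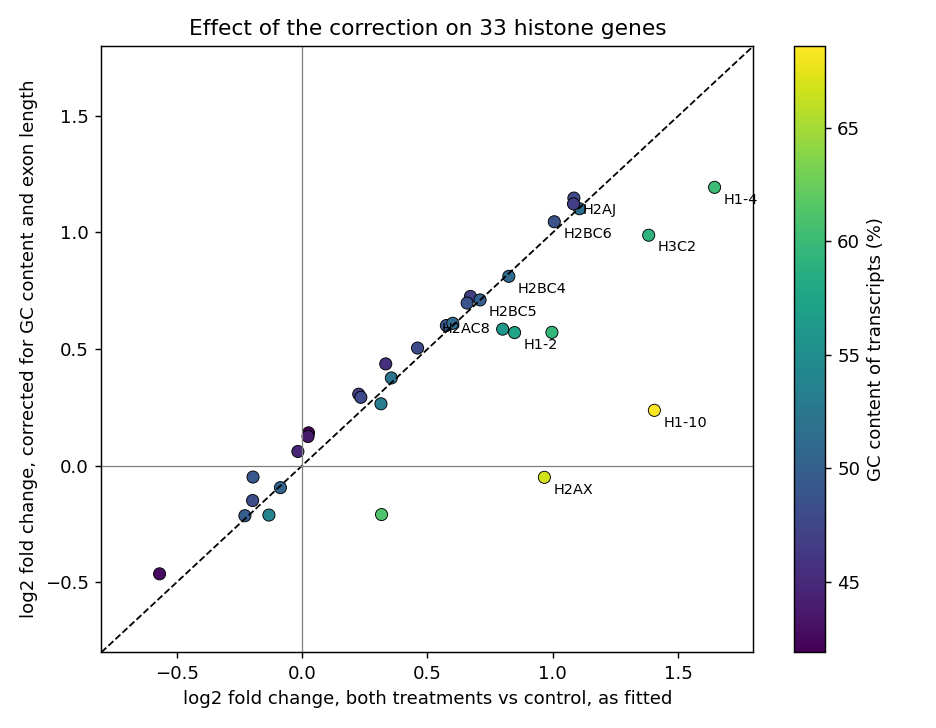
Log2 fold change of the 33 tested histone genes for both treatments against control as fitted (x axis) and corrected for GC content and exon length (y axis), coloured by GC content; the dashed line marks equal values. H1-10 moves from 1.40 to 0.24 and H2AX from 0.97 to -0.05, while H2BC4 and H2BC6 stay near the line.

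Single libraries carried part of the calls for both treatments. Without double-treated replicate 4, 4 histone genes were called, where 12% of all genes were, and without control replicate 3, 6 were, where 11.5% of all genes were. Calls thus fell in the whole table as well. Without control replicate 2, 15 were called, where 20.8% of all genes were, and without both libraries whose HEXIM1 went against their labels, 16, where 20.1% of all genes were. H2BC4 and H2AJ passed in every setting, while H2BC5 lost its call when any library other than control replicate 2 was left out from these 2 groups.

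Adding lactate to I-BET762 called no histone gene, where 4.9% of all tested genes changed, and no histone gene reached an unadjusted p under 0.05 either, against 19.6% of all. DESeq2 also called none, against 8.51% of all. H4C8 had -0.41 ± 0.21 (SE; adjusted p = 0.29), H2AC6 -0.42 ± 0.20 (SE; adjusted p = 0.27) and H2BC5 0.00 ± 0.23 (SE; adjusted p = 1). The interaction of the 2 treatments passed the test for no histone gene in edgeR or in DESeq2, where 0.0% of all tested genes passed, and 1 histone gene had an unadjusted p under 0.05, against 6.09% of all. That gene was H2AJ, with -0.90 ± 0.34 (SE; adjusted p = 0.7), chosen for mention after its value was seen. A missed threshold does not show that lactate left the response to I-BET762 as it was: for H2BC6 the interaction was 0.79 ± 0.39.

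The variant genes H2AZ1, H2AZ2, H3-3B, MACROH2A1 and MACROH2A2 passed the test in none of the 7 comparisons. H2AZ1, of the histone found at promoters, ranged from 370.0 to 464 CPM in control, 317 to 623 with lactate, 380.3 to 464 with I-BET762 and 359 to 373 in double-treated libraries. H2AZ2 ranged from 157 to 233, 165 to 223, 184 to 216 and 205 to 225 CPM in the same order. H3-3B, the main H3.3 gene, had log2 fold changes of 0.24 ± 0.13 (SE; adjusted p = 0.17) with lactate, 0.22 ± 0.13 with I-BET762 and 0.36 ± 0.13 (SE; adjusted p = 0.055) with both. MACROH2A1 and MACROH2A2, which mark silent chromatin, had averaged I-BET762 log2 fold changes of -0.11 ± 0.06 (SE; adjusted p = 0.38) and -0.27 ± 0.09 (SE; adjusted p = 0.11).

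Summed over all their genes, replication-dependent H2B transcripts measured 135 to 183 CPM in control and 110.1 to 133 CPM with lactate. They measured 213, 129.9, 244 and 236 CPM with I-BET762 and 197, 207, 203 and 216 CPM with both treatments. All double-treated libraries lay above all control and lactate libraries, and with I-BET762 only the library labelled replicate 2 did not. Replication-dependent H4 transcripts, mostly H4C8, summed to 21.5 to 34.7 CPM in control and 17.5 to 20.3 CPM with lactate, which do not overlap. This sum reflects H4C8, as 4 of the 5 tested H4 genes were above 0 with lactate. Replication-dependent H1, nearly all H1-2, summed to 174 ± 28.96 CPM in control and 313 ± 30.8 CPM with both treatments (mean ± SD, n = 4). Variant genes summed to 1685 ± 122 CPM in control, 1917 ± 244 with lactate, 1834 ± 74.5 with I-BET762 and 1943 ± 104 with both.

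**Figure D5:**
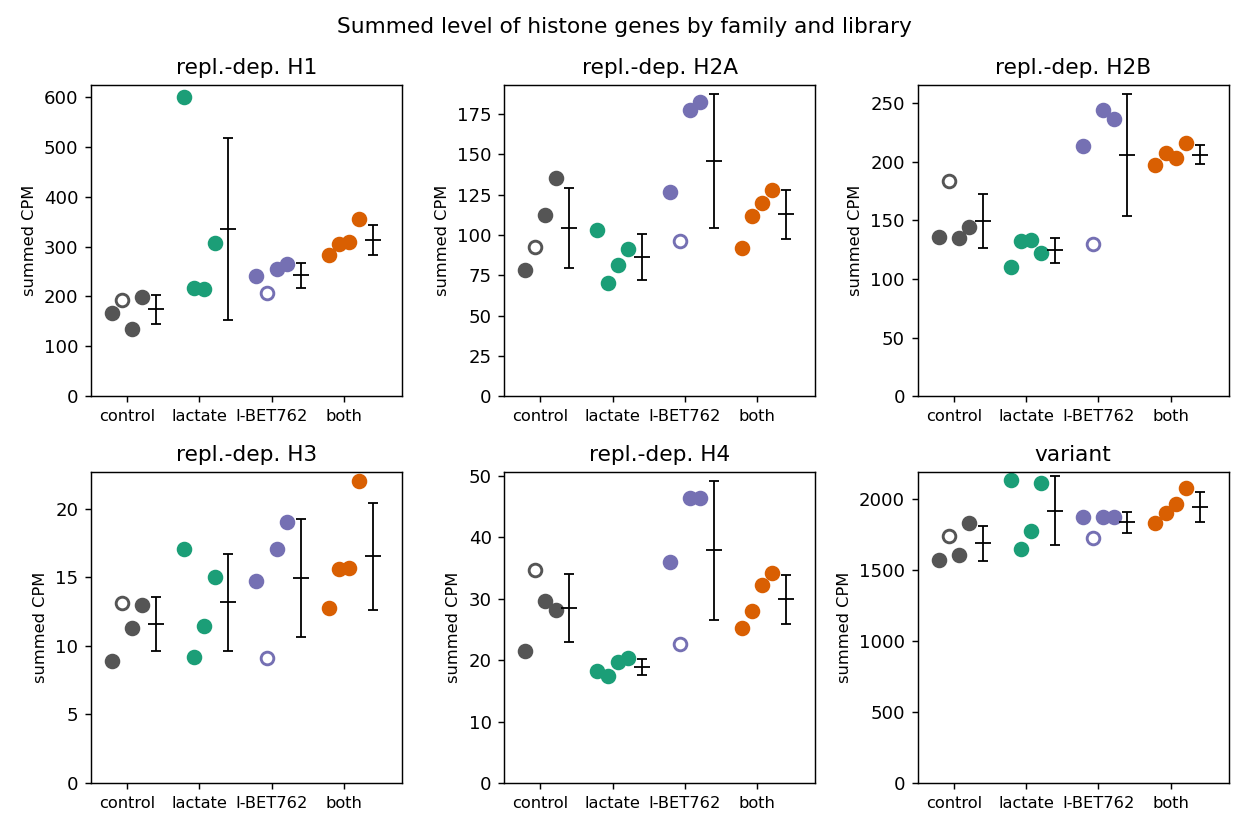
Summed CPM of replication-dependent genes of each family and of all variant genes, per library (points), with group means and SDs over 4 libraries; open points are replicate 2 of control and of I-BET762, as labelled. The H2B sums with both treatments (197 to 216 CPM) lie above the control sums (135 to 183 CPM). The H4 sums, mostly H4C8, lie below the control sums with lactate.

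The other genes of the pathway came from lists of histone transcription and mRNA processing, histone chaperones and S phase. Of 20 genes of histone transcription and histone mRNA processing, all tested, 0 rose and 6 fell with lactate, 0 rose and 2 fell with both treatments, and none changed in the averaged I-BET762 comparison. Of all tested genes, 10.1% fell with lactate, 7.72% fell with both treatments and 0.429% fell in the averaged comparison, which is the background for these lists. The list's median log2 fold change was -0.22 with lactate and -0.02 in the averaged I-BET762 comparison, against 0.03 and -0.01 over all tested genes. NPAT, the cyclin E-CDK2 substrate that activates histone gene transcription, had -0.58 ± 0.15 (SE; adjusted p = 0.012) with lactate and 0.01 ± 0.10 (SE; adjusted p = 0.96) with I-BET762 averaged. SLBP, the stem-loop binding protein, measured 143 ± 14.7 CPM in control (mean ± SD, n = 4) and had 0.15 ± 0.14 (SE; adjusted p = 0.43) with lactate and -0.11 ± 0.10 (SE; adjusted p = 0.58) with I-BET762 averaged. CPSF2, of the complex that cleaves histone pre-mRNA, had -0.43 ± 0.10 (SE; adjusted p = 0.0089) with lactate, CSTF2 -0.50 ± 0.14 (SE; adjusted p = 0.018) and TUT7, which adds uridines to histone mRNA in decay, -0.55 ± 0.16 (SE; adjusted p = 0.023).

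Of 24 histone chaperone genes, 23 were tested, with a median of -0.15 with lactate and 0.02 in the averaged I-BET762 comparison. With lactate 0 rose and 4 fell, with both treatments 1 rose and 4 fell, and in the averaged I-BET762 comparison 1 fell: ANP32E, which removes H2A.Z from nucleosomes (-0.46 ± 0.11 (SE; adjusted p = 0.041)). The share called in either direction, 4 of 23 with lactate and 5 of 23 with both treatments, was below or near the 23.7% and 20.7% of all tested genes. DNAJC9, a chaperone for H3 and H4, had -0.43 ± 0.10 (SE; adjusted p = 0.006) with lactate, and RBBP4, a histone-binding subunit of several complexes, -0.36 ± 0.08 (SE; adjusted p = 0.0044) with both treatments. Of 20 S-phase genes, all tested, 0 rose and 4 fell with lactate, 1 rose and 6 fell with both treatments, and none changed in the averaged I-BET762 comparison, where their median log2 fold change was -0.05. With lactate 4 of 20 is below the 23.7% of all genes called in either direction, and with both treatments 7 of 20 stands beside 20.7%. MCM3, of the replicative helicase, had -0.60 ± 0.10 (SE; adjusted p = 0.0013) with lactate and -0.03 ± 0.07 (SE; adjusted p = 0.88) with I-BET762 averaged.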

How the data were processed

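Polyadenylated RNA of 16 DU145 libraries (4 per group) was sequenced as single 75-base reads from 800 ng of RNA with a strand-marking kit, per the labels' protocols. The deposited values are whole read counts for 64792 Ensembl identifiers. The submitters' processing notes name STAR 2.6.1c, DESeq, GRCh38.p12 and hg38. What counted the reads, with which strand rule and annotation, is not given in the sources used here, so counts of near-identical, overlapping and antisense histone genes are uncertain. Symbols were matched for 58735 identifiers, all in GENCODE 29.

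Genes were kept by filterByExpr (minimum count 10, minimum total 15), which left 14690. Counts were scaled by TMM and edgeR 4.0.16 (R 4.3.3) fitted the mean of each of the 4 groups by quasi-likelihood (12 residual degrees of freedom; common biological coefficient of variation 0.183). The 7 comparisons were contrasts of this model, two-sided, and a gene was called at a Benjamini-Hochberg adjusted p under 0.05 over all tested genes. CPM are edgeR's on TMM-scaled sizes. Fold changes are log2 with SE, the absolute value divided by the root of F.

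Histone genes and lists were chosen with earlier results of these data known. All tested histone genes could be named; values per library are for those called in a comparison or of highest level in their family. SLBP, NPAT and HEXIM1 are always given, and of each list up to 4 called genes of smallest p; some items are not reported here. Alternatives were RLE scaling, no filter, DESeq2 1.42.0, limma-voom (limma 3.58.1), only the groups compared, offsets for GC content and exon length (splines of 5 degrees of freedom), a replicate block, and leaving out libraries. The test was tested on simulated data. RefSeq promoters are GRCh38.p14; stem-loops come from GENCODE 29 transcripts. Proteins and genome sequence were not used here.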

Additional observations from a re-analysis of the deposited data

Results flagged for a closer look

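In groups of 4 libraries, 9 values of single histone genes stood apart from the other 3 libraries by more than Dixon's 95% limit, out of 88 groups of the genes given in full; chance flags about 1 group in 20. H2BC6 measured 8.65 CPM in control replicate 2, against 3.97 to 4.66 in the other control libraries, and 3.96 CPM in I-BET762 replicate 2, against 9.2 to 9.8 in the other I-BET762 libraries. H2BC5 measured 15.3 CPM in I-BET762 replicate 2, against 36.0 to 39.7 in the others.

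H2AX stood out in replicate 1 with lactate (46.9 CPM, the others 26.2 to 26.5) and with I-BET762 (60.8 CPM, the others 34.6 to 37.7). H2AZ2 also stood out in I-BET762 replicate 1, at 216 CPM against 184 to 185 in the others. H2BC12 measured 42.8 CPM in control replicate 3, the lowest of its group, against 57.0 to 59.9 in the others. H2AC11 measured 9.35 CPM in double-treated replicate 1, against 13.7 to 14.5 in the others. H2BC4 measured 14.2 CPM in double-treated replicate 3, against 17.5 to 18.0 in the others. Causes of these values were not tested.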

How the results depend on the processing

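Counts of called histone genes were recomputed under each alternative. For lactate against control (4 as fitted) every alternative other than a left-out library gave 3 to 5. For I-BET762 against control (1) the count was 6 without a filter, 3 with the replicate block, 0 with the GC and length correction, 0 with the block and that correction together, 3 without replicate 2 of both control and I-BET762 as labelled, 3 with only the groups compared, 4 with DESeq2 and 0 with limma-voom. For both treatments against control (10) it was 4 with the correction, 6 with the block and the correction, 16 without those 2 libraries and 16 with only the groups compared. For both treatments against lactate (0) it was 7 without a filter, 5 without those 2 libraries and 3 with DESeq2. For both treatments against I-BET762 (0) it was 1 without those 2 libraries (H2BC11, lower) and 1 with only the groups compared. For I-BET762 averaged over both conditions (7) it was 11 without a filter, 4 with the correction, 14 without those 2 libraries and 11 with DESeq2. The interaction stayed at 0 in all alternatives run; only the groups compared was not run for it or for the averaged comparison, which use all groups. Leaving out each library in turn gave 2 to 5 for lactate, 0 to 1 for I-BET762, 4 to 15 for both treatments, 0 for both against lactate, against I-BET762 and for the interaction, and 0 to 12 for the averaged comparison. Same-numbered libraries were not treated as pairs, since 16 of 24 such pairs and not all correlated above 0.1 in their deviations from the group means (range -0.26 to 0.42; median 0.17, against -0.08 for other numbers), and 7 of 16 libraries matched their own number best; the replicate block gave 5 calls for lactate, 12 for both treatments and 7 for the averaged comparison, and 0 for both against lactate. 2 called fold changes reversed: H1-10 with lactate was -0.14 with the GC and length correction and -0.16 with the block as well, and H2AX under both treatments was -0.0499 and -0.0481. A further 132 of the 2921 recomputed fold changes, called in neither fit, changed sign, 78 of them when 1 library was left out; H2AX with lactate went from 0.60 to -0.37 with the correction. Depth limits the 9 genes near the minimum count, such as H1-4 and H3C2; the causes of the other shifts were not tested.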

Other observations

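The transcribed H2B pseudogenes H2BC19P and H2BC20P are not protein-coding and so stood outside the histone genes described above. They were chosen for mention after their values were seen. Of 32 pseudogene or noncoding histone rows, 3 were tested, and these 2 were called, both lower with lactate. Of all tested genes, 23.7% were called with lactate and 10.1% were lower. H2BC19P measured 16.9, 33.7, 30.9 and 28.02 CPM in control replicates 1 to 4 and 7.32, 13.6, 15 and 14.96 CPM in the lactate libraries. With I-BET762 it measured 29.7, 19.8, 48.9 and 50.7 CPM, and with both treatments 25.6, 23.9, 28.5 and 26.4 CPM. Every lactate library lay below every control library, with a log2 fold change of -1.09 ± 0.28 (SE; adjusted p = 0.012). H2BC20P measured 30.7, 46.2, 53 and 43.6 CPM in control replicates 1 to 4 and 14.03, 29.1, 29.4 and 27.8 CPM in the lactate libraries. With I-BET762 it measured 47.5, 29.2, 77.1 and 80.4 CPM, and with both treatments 40.8, 44.8, 52.2 and 45.5 CPM. Here too every lactate library lay below every control library, and the log2 fold change was -0.78 ± 0.28 (SE; adjusted p = 0.049). In the averaged I-BET762 comparison they had 0.74 ± 0.20 (SE; adjusted p = 0.055) and 0.65 ± 0.19 (SE; adjusted p = 0.077). As pseudogenes they share sequence with H2B genes, so their counts are uncertain.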
